A study of Mus musculus with 12 samples.

Results

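The genes that carry the insulin signal of a fat cell from its surface to its glucose transporter were described in adipose tissue of mice on a high-fat diet (HFD) and a standard chow diet (SCD). They are the insulin receptor Insr, the adaptors Irs1 and Irs2, the phosphoinositide 3-kinase (PI3K) subunits Pik3r1 and Pik3ca, the kinases Akt1 and Akt2, and the glucose transporter gene Slc2a4. They were taken as a named list, 8 of the 22380 protein-coding genes of the annotation, and the rule that defines them uses no measured value, although results of these data were known when the list was drawn up. H3K9me2 and H3K9me3, the di- and tri-methylated forms of lysine 9 of histone H3, were profiled in HFD-fed and SCD-fed wild-type C57BL/6J mice by ChIP-seq, in which chromatin bound by an antibody is sequenced. The mice were put on either diet at 6 weeks of age, and brown adipose tissue (BAT) and subcutaneous white adipose tissue (WAT) were taken after 12 weeks. Of the 12 libraries, 8 were immunoprecipitated, 1 for each diet, tissue and mark, and 4 were inputs, which were not used here. Replicates were lacking, each group having a single library, so no difference between diets, marks or tissues was tested and the values below are descriptions. Both tissues were bulk tissue, in which a mark lost from all cells and a smaller share of the cells that carry it cannot be told apart, and a list of peaks holds no expression by which the tissue could be checked. The methods of the study pair each of the marks with an antibody described for the other one, so the marks are named here as the libraries are labelled, and the marks cannot be told apart from a swap of the antibodies.

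Insulin binds its receptor, a tyrosine kinase, which phosphorylates the insulin receptor substrates. These adaptors recruit PI3K, a dimer of a regulatory and a catalytic subunit, and the lipid it makes brings Akt kinases to the membrane. In adipocytes Akt2 is the isoform best known for moving GLUT4, the product of Slc2a4, from internal vesicles to the cell surface, where it takes up glucose. Methylation of H3K9 is commonly found on repressed chromatin, H3K9me3 above all over repeats and heterochromatin and H3K9me2 over broad silent domains.

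The 8 genes have 40 annotated transcription start sites. Starts that lay at most 1000 bp from the next one were joined into 23 start groups, a grouping chosen after the peaks were seen. Irs1, on chromosome 1 from 82229676 to 82287991 (minus strand, mm9), and Irs2, on chromosome 8 from 10986980 to 11008458 (minus strand), have a single start each. Insr (chromosome 8, 3150922 to 3279617, minus strand) has 3 starts in 2 groups, Pik3r1 (chromosome 13, 102450716 to 102538172, minus strand) 3 starts in 3 groups, and Pik3ca (chromosome 3, 32296593 to 32367408, plus strand) 3 starts in 2 groups. Akt1 (chromosome 12, 113892032 to 113913095, minus strand) has 9 starts in 5 groups, Akt2 (chromosome 7, 28376571 to 28425845, plus strand) 15 starts in 7 groups, and Slc2a4 (chromosome 11, 69756045 to 69761690, minus strand) 5 starts in 2 groups. Promoter windows reached 3 kb to each side of every start, so that for Akt1, Akt2 and Slc2a4 most of the promoter windows lie inside the gene.

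The starts differ in their CpG content, and the 300 bases upstream of 5 of them show the range, from the reference assembly NCBIM37 (the sequence of mm9), 5′ to 3′ in the direction of transcription, with each CG in capitals. Chosen were 2 starts that peaks covered in nearly all lists (Irs2-201 and Pik3ca-001) and the main start of Akt1 (Akt1-001), beside which peaks began downstream. An internal start of Akt1 that peaks covered in HFD lists alone (Akt1-004) was added. So was the most upstream start of Slc2a4 (Slc2a4-003), which no peak covered.
Irs2-201 (chr8:11008459-11008758, minus strand): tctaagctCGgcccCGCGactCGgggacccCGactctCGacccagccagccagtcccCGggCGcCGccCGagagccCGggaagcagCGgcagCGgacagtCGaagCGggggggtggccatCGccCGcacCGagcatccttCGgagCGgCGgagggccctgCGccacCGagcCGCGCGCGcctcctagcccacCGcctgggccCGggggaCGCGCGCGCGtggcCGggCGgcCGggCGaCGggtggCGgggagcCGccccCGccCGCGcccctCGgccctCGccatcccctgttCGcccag
Pik3ca-001 (chr3:32296293-32296592, plus strand): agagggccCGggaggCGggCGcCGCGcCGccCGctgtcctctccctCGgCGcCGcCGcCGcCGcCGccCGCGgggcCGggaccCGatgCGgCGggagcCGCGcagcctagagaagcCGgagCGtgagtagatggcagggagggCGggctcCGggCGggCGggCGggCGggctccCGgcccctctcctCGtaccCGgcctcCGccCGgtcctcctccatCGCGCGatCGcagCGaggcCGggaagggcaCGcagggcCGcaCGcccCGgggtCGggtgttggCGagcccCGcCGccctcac
Akt1-001 (chr12:113912488-113912787, minus strand): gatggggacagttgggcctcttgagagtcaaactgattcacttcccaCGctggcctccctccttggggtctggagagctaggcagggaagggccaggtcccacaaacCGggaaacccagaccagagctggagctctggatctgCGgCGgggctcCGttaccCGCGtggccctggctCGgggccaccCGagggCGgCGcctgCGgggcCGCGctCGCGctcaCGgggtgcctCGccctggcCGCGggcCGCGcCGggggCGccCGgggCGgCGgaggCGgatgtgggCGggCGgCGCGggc
Akt1-004 (chr12:113906326-113906625, minus strand): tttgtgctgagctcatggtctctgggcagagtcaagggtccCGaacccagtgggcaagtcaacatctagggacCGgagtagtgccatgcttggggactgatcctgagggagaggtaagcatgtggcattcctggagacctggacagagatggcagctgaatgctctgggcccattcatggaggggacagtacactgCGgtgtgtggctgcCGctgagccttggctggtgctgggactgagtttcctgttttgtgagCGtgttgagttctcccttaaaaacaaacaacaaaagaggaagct
Slc2a4-003 (chr11:69761691-69761990, minus strand): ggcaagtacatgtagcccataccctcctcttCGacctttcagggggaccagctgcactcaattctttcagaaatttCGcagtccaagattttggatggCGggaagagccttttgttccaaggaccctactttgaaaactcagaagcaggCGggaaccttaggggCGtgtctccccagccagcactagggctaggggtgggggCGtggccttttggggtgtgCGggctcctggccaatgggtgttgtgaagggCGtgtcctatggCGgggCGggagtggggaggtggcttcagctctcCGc
CG was searched on the given strand, and reads the same on the other strand. At least 1 CG was held by 93.9% of the windows of the same length upstream of the most upstream start of all protein-coding genes, with a median of 9. The windows above hold 47 at Irs2, 49 at Pik3ca, 32 at Akt1-001, 5 at Akt1-004 and 11 at Slc2a4. As many CGs as at Irs2 or more were found in 1.24% of genes, and as many as at Slc2a4 in 47.0%. The window upstream of Akt2-001, not shown, also holds 11, and peaks reached into it in 6 lists. Those of Insr-001, Irs1-001 and Pik3r1-202 hold 15, 31 and 36, and peaks reached into each in 7 lists.

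A peak here is a region called by MACS2, with its position and a score, taken here as the negative log10, multiplied by 10, of the p-value at which it was called. That scale is usual for an earlier version of MACS and its unit is not stated for these lists, so it is an assumption. The score is not scaled between libraries and the lists hold no depth, so a higher score in a list is not read as more methylation, and its percentile among all peaks of its own list is given beside it where needed. Deposited scores began at 50 or 50.01 except in SCD WAT, where they began at 30 for both marks. A score of at least 50 was therefore asked for in every list, and where no peak is listed, none was detectable at a depth that is not known. The lists held between 21746 and 52758 such peaks, apart from SCD WAT H3K9me3 with 8350, where 69.9% of the deposited peaks scored under 50.

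The 8 genes held 63 promoter peaks over the 8 lists, 53 of which covered a start, and 12 further peaks in gene bodies. Of the 64 combinations of a gene and a list, 47 had a promoter peak. Insr, Irs1, Irs2, Pik3r1 and Akt2 each had one in 7 lists, Pik3ca in 6, Akt1 in 5 and Slc2a4 in 1. Over all protein-coding genes the median was 3 lists, 18.1% of genes had a promoter peak in 7 lists or more, and 31.8% had none in any list. The receptor, its adaptors, the regulatory PI3K subunit and Akt2 were thus among the genes most often marked. The transporter gene lay below the median of all genes, though above the 31.8% without a promoter peak in any list.

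**Figure D1:**
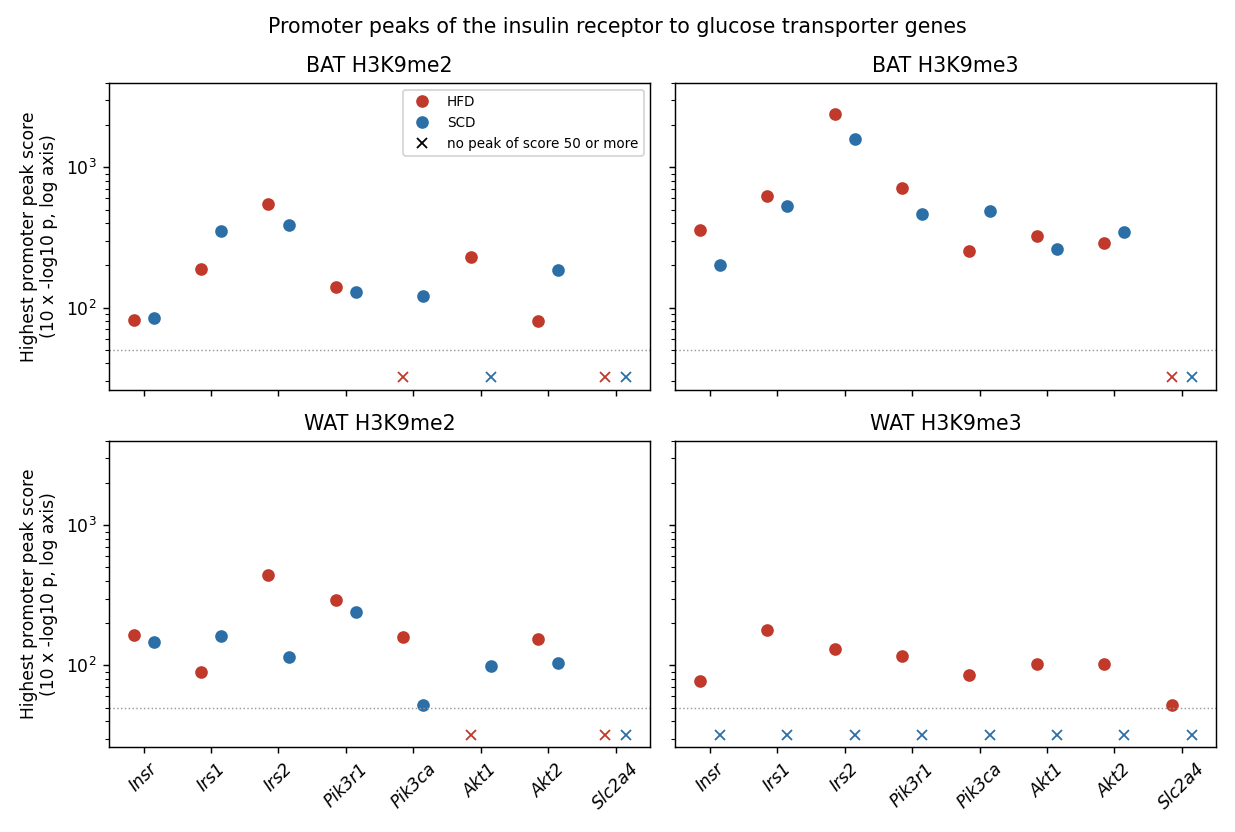
The highest promoter peak score (negative log10 p multiplied by 10, log axis) of each gene in HFD (red, left) and SCD (blue, right) lists, with 1 panel per tissue and mark, the dotted line at the lowest score used (50) and crosses for no peak. In WAT H3K9me3 all 8 genes have an HFD peak, between 52.6 and 178, and none an SCD peak, while in BAT H3K9me3 7 genes have a peak in both diets.

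By list, the HFD BAT H3K9me2 list held a promoter peak at 6 of the 8 genes, against 45.6% of all protein-coding genes, and the SCD BAT H3K9me2 list also at 6, against 43.3%. In BAT H3K9me3 it was 7 genes in HFD (58.9% of all genes) and 7 in SCD (52.3%). In WAT H3K9me2 it was 6 genes in HFD (39.3%) and 7 in SCD (42.3%). In WAT H3K9me3 it was all 8 genes in HFD, against 35.9% of all genes, and 0 in SCD, against 6.96%. These genes were also the ones with a start covered by a peak, in the same numbers in every list, while that share among all genes was 33.5% in HFD and 37.2% in SCD for BAT H3K9me2, and 50.3% in HFD and 46.8% in SCD for BAT H3K9me3. In WAT it was 31.0% in HFD and 35.9% in SCD for H3K9me2, and 26.4% in HFD and 4.22% in SCD for H3K9me3.

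Between the diets, 5 genes had a BAT H3K9me2 promoter peak in both lists (31.8% of all genes), Akt1 in HFD only (13.8% of all genes), Pik3ca in SCD only (11.5%) and Slc2a4 in neither (43.0%). In BAT H3K9me3, 7 genes had a peak in both diets (50.1% of all genes), Slc2a4 had none (38.9%), and 0 genes had one in HFD only (8.83%) or SCD only (2.16%). In WAT H3K9me2, 6 genes had a peak in both diets (32.2%), Akt1 in SCD only (10.2%), Slc2a4 in neither (50.5%) and 0 genes in HFD only (7.16%). The WAT H3K9me3 lists differed for every gene, with a peak in HFD only at all 8 (30.6% of all genes), in SCD only at 0 (1.68%), in both at 0 (5.27%) and in neither at 0 (62.4%). The count of 8 in HFD only fell to 6 at a score of at least 80, without Insr and Slc2a4, and to 7, without Akt1, with coding starts alone or the most upstream start alone. It was also 7, without Insr, in the deposited lists and with equal numbers of peaks. That last setting took the number of the shorter deposited list, 27774, and so kept all SCD peaks down to a score of 30. It did not even out the 8350 SCD and 29190 HFD peaks of score 50 or more. The WAT H3K9me3 comparison rests on the SCD list with few peaks of score 50 or more, and the part of its depth in it was not tested.

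Insr encodes the receptor itself. Its peaks lay over the upstream start group (starts at 3279617 and 3279551) in 7 lists, where they covered both starts and reached from the first exon into the first intron. Their scores were 80.9 in HFD and 84.6 in SCD for BAT H3K9me2, 360.1 in HFD and 199.6 in SCD for BAT H3K9me3, 166 in HFD and 148 in SCD for WAT H3K9me2, and 77.9 in HFD alone for WAT H3K9me3. By percentile within its own list, the BAT H3K9me2 peak stood at 55.1 in HFD and 47.7 in SCD, so the order of the diets turned. The position hardly moved, with upstream edges between -375 and -185 bp and downstream edges between 678 and 932 bp of the Insr-001 start (negative values lie upstream). The SCD WAT H3K9me3 list had no peak there at any score. Its nearest peak, of score 43.5, lay 1527 bp from the internal start of Insr-201 (3192717), 86900 bp further into the gene, and counts as a promoter peak only when scores under 50 are kept.

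Inside Insr a peak in an intron returned at nearly the same place in 3 lists, between 57909 and 58809 bp downstream of the main start. It scored 67.7 in HFD WAT H3K9me2 (3220908 to 3221613), 71.1 in SCD WAT H3K9me2 (3220864 to 3221606) and 59.0 in SCD BAT H3K9me3 (3220808 to 3221708). The HFD BAT H3K9me3 list had no peak at that place, and its intron peak (3203055 to 3203674, score 85.6) lay elsewhere. The recurring interval had a GC content of 59.4% to 61.3%, while the peak found in a single list had 39.7%.

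Irs1 and Irs2 encode the adaptors that the receptor phosphorylates, and they held the widest peaks of the 8 genes. Both have an unusual layout, in which the first exon is 4640 bp long in Irs1 and 3989 bp in Irs2 and holds most of the coding sequence, and the peaks lay over this exon. In BAT H3K9me2 the HFD list had 2 adjoining peaks at Irs1, 2473 bp (score 187) and 2204 bp (score 188) wide with a gap of 21 bp, where the SCD list had 1 peak of 5332 bp (score 354). The peaks covered 99.5% of the Irs1 exon in HFD and 100% in SCD. The 2 lists therefore differed more in how the region was split than in its extent, and the higher score of the undivided SCD peak stands beside its greater width.

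In BAT H3K9me3 the HFD peaks at the Irs1 start were 2301 bp (score 629.7) and 542 bp (score 54.6) wide, and a further peak of 1043 bp (score 81.9) lay further along the exon. The SCD list had 1 peak of 3796 bp (score 531). Exon coverage was 67.0% in HFD and 64.1% in SCD. In WAT the Irs1 peaks were narrower for H3K9me2, 861 bp (score 90.4) in HFD and 2153 bp (score 162) in SCD, which covered 4.87% of the exon in HFD and 30.9% in SCD. For WAT H3K9me3 the HFD peak was 3752 bp wide (score 178), covered 66.4% of the exon, and had no SCD counterpart. In WAT H3K9me2 the HFD peak thus ended 225 bp past the Irs1 start and the SCD peak 1431 bp past it.

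An Irs1 intron peak also recurred, at 7690 to 8307 bp from the start in HFD BAT H3K9me3 (score 98.6) and 7518 to 8345 bp in SCD BAT H3K9me3 (score 89.8). The same place held a peak of score 35.7 in SCD WAT H3K9me2, below the lowest score used.

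Irs2 had the highest score of the 8 genes in the 4 BAT lists and in HFD WAT H3K9me2, but not in SCD WAT H3K9me2 or HFD WAT H3K9me3. In BAT H3K9me3 the scores reached 2399 in HFD, at the 99.9 percentile of its list, and 1593 in SCD, at the 99.6 percentile. The SCD peak there was 5844 bp wide, while the HFD list had 3 peaks of 3466, 893 and 1240 bp (scores 2399, 146 and 208) with gaps of 98 and 8 bp between them, again a split of a single region. In BAT H3K9me2 the Irs2 peak was 5480 bp wide in HFD (score 548) and 5790 bp in SCD (score 386). These widths were 5.54 times the median width of promoter peaks in the HFD list and 5.03 times in the SCD list.

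In WAT H3K9me2 Irs2 had 1 HFD peak of 2802 bp (score 444) and 2 SCD peaks of 3405 and 1600 bp (scores 99.3 and 115). They covered 40.8% of the first exon in HFD and 85.4% in SCD, so the HFD peak had the higher score and the smaller extent. In WAT H3K9me3 the HFD peaks were 3496 and 2002 bp wide (scores 132 and 102) and covered 95.7% of the exon, and the SCD list had none. In both BAT marks coverage was 97.1% to 97.3% in HFD and 100% in SCD. A lincRNA gene, 9530052E02Rik, starts on the other strand 608 bp inside Irs2 at 11007850, so the Irs2 peaks also lie at its start and cannot be assigned to either gene.

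**Figure D2:**
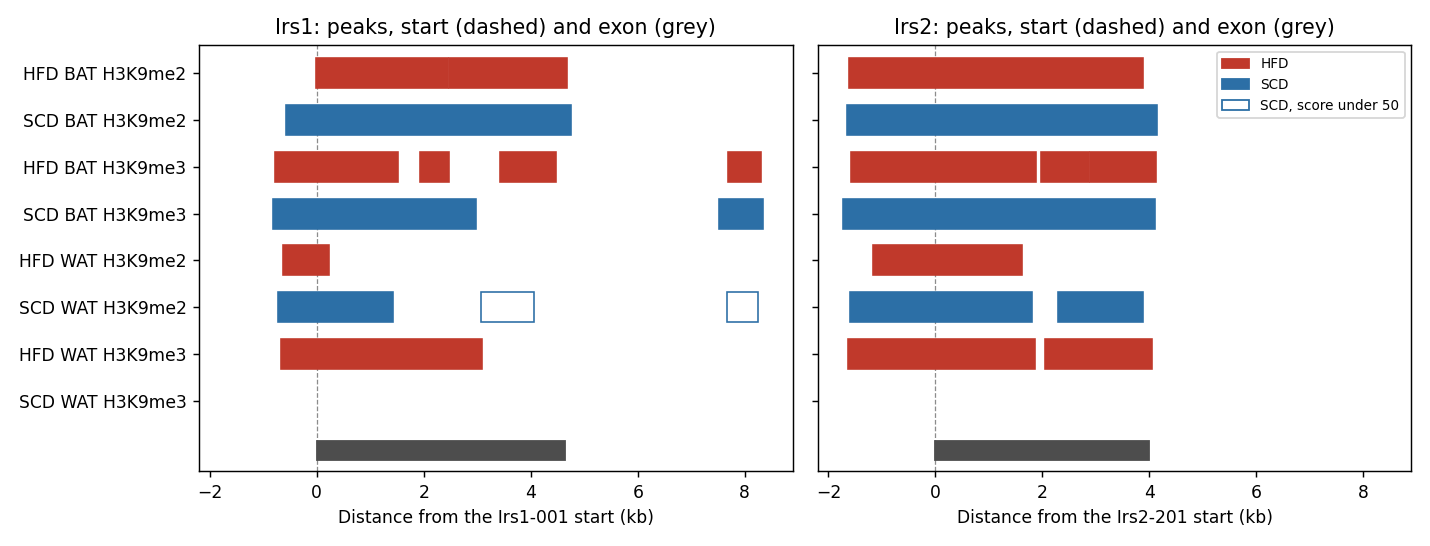
Peaks at Irs1 (left) and Irs2 (right) in the 8 lists, HFD (red) above SCD (blue) in each tissue and mark, by distance from the start (dashed line) in the direction of transcription, with the first exon in grey and open boxes for peaks of score under 50. In BAT the peaks cover 64.1% of the first exon or more in both diets, split into pieces in some HFD lists, while in WAT H3K9me2 the HFD peak at Irs1 covers 4.87% of the exon and the SCD peak 30.9%.

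Pik3r1 encodes the regulatory PI3K subunits, and its starts correspond to a long and to shorter forms. The peak over the most upstream start, that of Pik3r1-202 at 102538172, was present in 7 lists with widths between 1683 and 1959 bp. Scores were 141 in HFD and 129.8 in SCD for BAT H3K9me2, 710.4 in HFD and 462 in SCD for BAT H3K9me3, 295 in HFD and 241 in SCD for WAT H3K9me2, and 116 in HFD alone for WAT H3K9me3. The HFD score was the higher in each pair, and the peak centres of a pair were 1.00 to 23.0 bp apart. At the internal start of Pik3r1-203 (102464346), 73826 bp downstream, the HFD BAT H3K9me2 list alone had a peak, whose score of 50.3 was at the 0.785 percentile of its list. No list had a peak nearest to the start of Pik3r1-201 (102462602).

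Pik3ca encodes the catalytic subunit p110 alpha. All of its peaks lay over the upstream start at 32296593, and neither the internal starts nor the gene body had any. In BAT H3K9me2 the HFD list had no peak and the SCD list had 1 of 1297 bp with a score of 121, at the 68.9 percentile of its list. In BAT H3K9me3 the peak was 841 bp wide in HFD (score 251) and 1440 bp in SCD (score 492). In BAT the SCD list thus had the higher scoring peak for H3K9me3 and the only one for H3K9me2. WAT H3K9me2 went the other way in score, with 159.7 in HFD (563 bp) and 52.0 in SCD (725 bp), the SCD value being at the 3.66 percentile of its list. In WAT H3K9me3 the HFD peak had 683 bp and a score of 86.0, and SCD had none. Pik3ca was the only one of the 8 genes present in SCD and missing in HFD at a promoter in BAT.

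**Figure D3:**
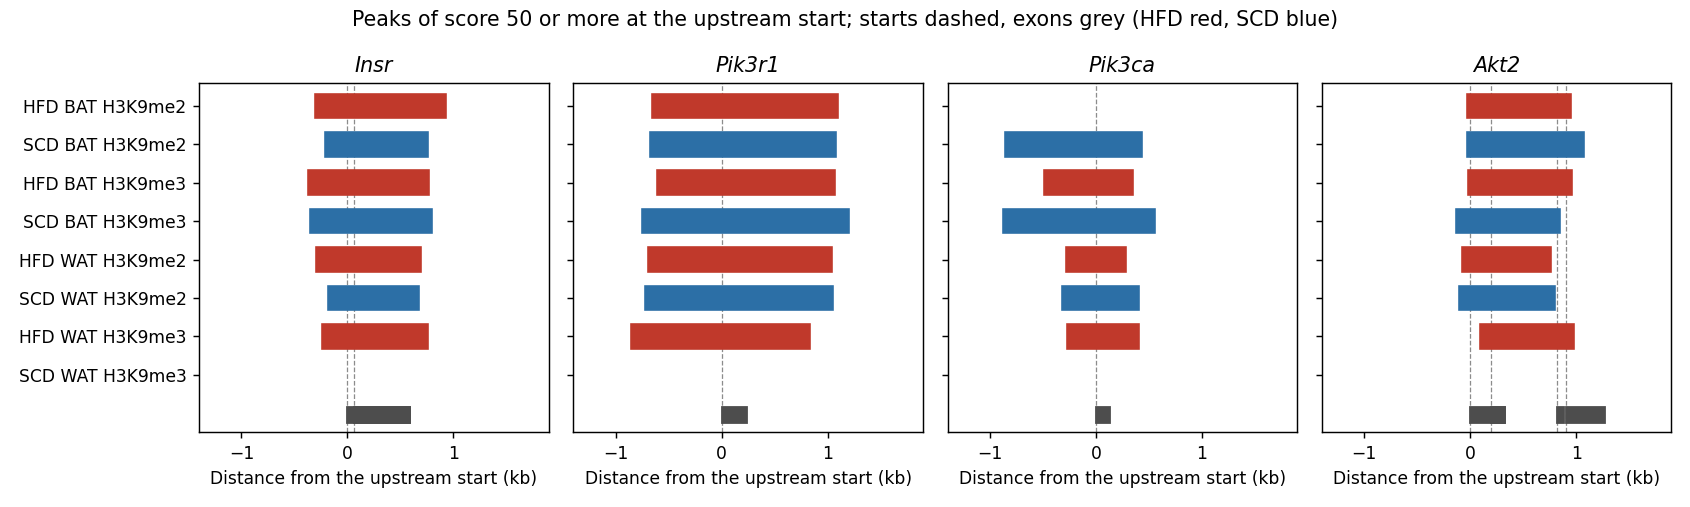
Peaks at the upstream start of Insr, Pik3r1, Pik3ca and Akt2 in the 8 lists, HFD (red) above SCD (blue) in each tissue and mark, by distance from the start in kb, with annotated starts dashed and exons in grey. The peaks of Insr, Pik3r1 and Akt2 keep their place in 7 lists, while that of Pik3ca is missing in HFD BAT H3K9me2 and wider in the SCD lists of BAT, 1297 and 1440 bp.

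Akt1 encodes a broadly expressed Akt kinase and its peaks lay at different places in different lists. Near the main start (Akt1-001, 113912487) peaks were found in 3 lists, and all lay downstream of it. They spanned 221 to 1013 bp from that start in HFD BAT H3K9me3 (score 200.2), 29 to 1020 bp in SCD BAT H3K9me3 (score 262) and 246 to 951 bp in SCD WAT H3K9me2 (score 98.9). None of them reached the 300 bases upstream of Akt1-001 shown above, although these hold 32 CGs. What they covered was the start of Akt1-003 at 113912155, and the SCD BAT H3K9me3 peak also that of Akt1-005.

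The other Akt1 peaks lay between 5315 and 20743 bp downstream of that start, and at a score of at least 50 they were found in HFD lists alone. HFD BAT H3K9me2 had 5 of them, with scores of 228 over the start of Akt1-009 (113895184, 2042 bp wide), 61.5 near Akt1-007, 129 in an intron, and 166 and 86.3 beside and over the start of Akt1-004 (113906325). SCD BAT H3K9me2 had no Akt1 peak. HFD BAT H3K9me3 had 4, at 322 over Akt1-009, 103 in the intron, and 223 and 80.6 beside and over Akt1-004, and SCD BAT H3K9me3 had none of these. HFD WAT H3K9me3 had a peak of 1951 bp over Akt1-009 (score 102) and one of 1536 bp at the end of the gene (score 71.8), against none in SCD. The 3 HFD lists therefore shared a peak over the start of Akt1-009, and both HFD BAT lists shared the places near Akt1-004 and in the intron.

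In WAT H3K9me2 the diets were the other way round, with no Akt1 peak in HFD and the peak of score 98.9 near the main start in SCD. That SCD list also had 3 weaker peaks inside Akt1, with scores of 31.5, 43.8 and 45.1. The peak of 31.5 lay within the HFD peaks over the start of Akt1-009, and that of 43.8 within the HFD BAT peaks beside Akt1-004. These internal places were thus not free of peaks in SCD at lower scores, and the HFD list of WAT H3K9me2 has no scores under 50 to set beside them. The transcripts that begin at the internal starts of Akt1-004, Akt1-007, Akt1-008 and Akt1-009 are annotated as non-coding (processed transcripts or retained introns). With the most upstream start alone, the Akt1 promoter had no BAT H3K9me2 peak in either diet, so its count in HFD only rests on the internal starts. These are not all non-coding. With coding starts alone Akt1 was still counted in HFD only, since the peak of score 86.3 lies within 3 kb of the coding start of Akt1-006 (113909775). No coding start of Akt1 was covered by a peak in that list.

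**Figure D4:**
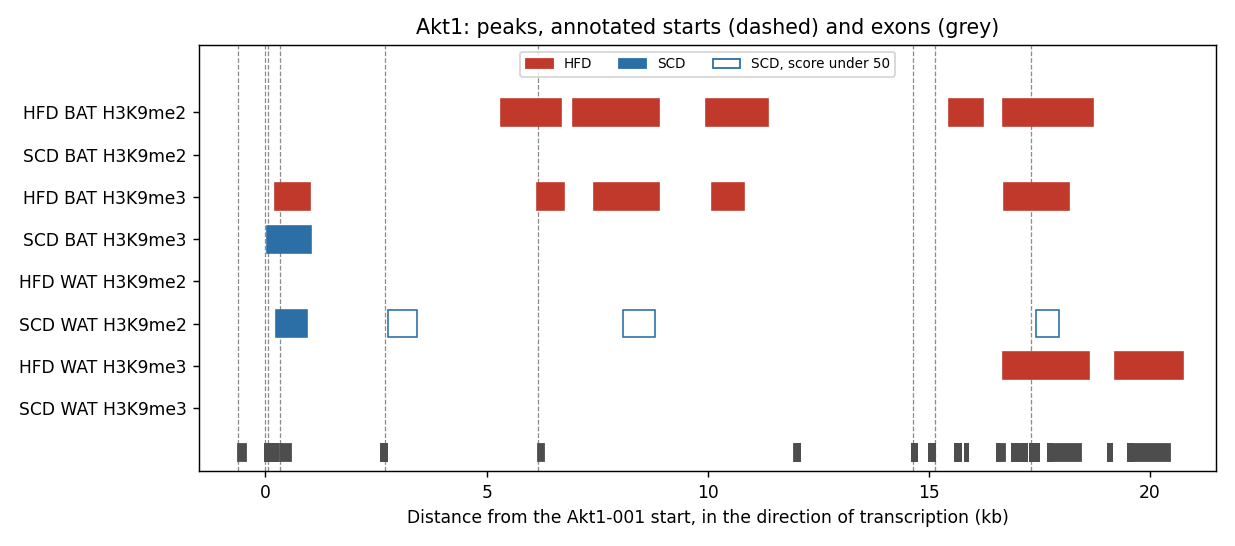
Peaks at Akt1 in the 8 lists, HFD (red) above SCD (blue) in each tissue and mark, by distance from the Akt1-001 start in kb, with annotated starts dashed, exons in grey and open boxes for peaks of score under 50. Peaks of score 50 or more that lie 5315 bp or more downstream of that start occur in 3 HFD lists and in no SCD list, while peaks just downstream of it occur in HFD BAT H3K9me3, SCD BAT H3K9me3 and SCD WAT H3K9me2.

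Akt2 had a peak over its upstream starts in 7 lists, within -138 to 1077 bp of the Akt2-001 start at 28376571. The scores were 79.7 in HFD and 184 in SCD for BAT H3K9me2, 289.7 in HFD and 346 in SCD for BAT H3K9me3, 154 in HFD and 105 in SCD for WAT H3K9me2, and 102 in HFD alone for WAT H3K9me3. By percentile within its own list, the peak stood at 53.8 in HFD and 85.3 in SCD for BAT H3K9me2, 83.7 in HFD and 80.5 in SCD for BAT H3K9me3, and 83.8 in HFD and 58.1 in SCD for WAT H3K9me2. The order of the diets in BAT H3K9me3 thus turned between score and percentile. It also turned at Insr in BAT H3K9me2 and near the main Akt1 start in BAT H3K9me3 (percentiles of 74.5 in HFD and 72.1 in SCD). Peaks at internal starts were found in 1 list each, with a score of 78.1 over the start of Akt2-006 (28381849) in HFD BAT H3K9me2 and 75.1 over that of Akt2-009 (28392767) in SCD BAT H3K9me3. An intron peak between 31595 and 32208 bp from the start recurred in HFD BAT H3K9me3 (score 135), SCD BAT H3K9me3 (score 80.5) and HFD WAT H3K9me2 (score 73.0), and SCD WAT H3K9me2 had a peak of score 47.8 there.

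Slc2a4, the gene of GLUT4, was the exception among the 8 genes. Its single peak was in HFD WAT H3K9me3, from 69758024 to 69759172 (1149 bp), with a score of 52.6 at the 7.69 percentile of that list. It lay 2479 to 3627 bp downstream of the Slc2a4-001 start (69761651), over the start of a processed transcript (Slc2a4-005, 69758600). It lies within 3 kb of the 4 starts of the upstream group too, but none of these starts was covered by a peak in any list, whatever its score. In 6 of the other lists the peak nearest to Slc2a4 lay 8556 to 8921 bp from its closest start, at the promoter of Ybx2, a germ cell RNA-binding protein gene, with scores of 70.3 in HFD and 129 in SCD for BAT H3K9me2, 528 in HFD and 544 in SCD for BAT H3K9me3, and 157 in HFD and 65.8 in SCD for WAT H3K9me2. Peaks were thus detected in the neighborhood of Slc2a4 in these 6 libraries but not over the gene. In SCD WAT H3K9me3 the nearest peak lay 388642 bp away, so that list had none in the neighborhood either.

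Gene body peaks, beyond 3 kb from any start, were found at a larger share of the 8 genes than of all genes in some lists and at a smaller one in others. In HFD BAT H3K9me2 they were found at 1 of the 8 genes (Akt1), against 26.6% of all genes, and in SCD BAT H3K9me2 at 0, against 15.7%. In BAT H3K9me3 they were at 4 genes in HFD (Insr, Irs1, Akt1 and Akt2, against 24.1%) and at 3 in SCD (Insr, Irs1 and Akt2, against 13.9%). With equal numbers of peaks in both diets these counts were 2 in HFD (Akt1 and Akt2) and 3 in SCD, so their order turned. WAT H3K9me2 had them at 2 genes in HFD (Insr and Akt2, against 9.80%) and 1 in SCD (Insr, against 13.9%). WAT H3K9me3 had 0 in HFD, against 17.9%, and 0 in SCD, against 6.49%.

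Where a gene had a promoter peak in both diets, 1 HFD and 1 SCD peak were compared, the pair with the largest overlap. Other promoter peaks of the gene were left out, also those without a counterpart in the other diet. Examples are the HFD BAT H3K9me3 peak over the start of Akt1-009 (score 322) and the SCD BAT H3K9me3 peak over that of Akt2-009 (score 75.1). All 18 such pairs overlapped, 16 of them by at least 50% of the longer peak, and their centres were 77.5 bp apart in the median. The 2 others were Irs1 in BAT H3K9me2 (46.4%) and in WAT H3K9me2 (40.0%), where the HFD peak was the shorter one. How often such pairs overlap over all genes was not counted, so the overlap is not read as particular to these genes. Each pair compares single peaks as called, so a region that a list splits enters with 1 of its pieces. This holds for HFD at Irs1 in BAT H3K9me2 and at Irs1 and Irs2 in BAT H3K9me3, and for SCD at Irs2 in WAT H3K9me2. Counted in this way, the HFD peak was narrower in 16 of the 18 pairs, with a median HFD over SCD width of 0.872. By mark and tissue it was narrower in 4 of 5 pairs in BAT H3K9me2, 7 of 7 in BAT H3K9me3 and 5 of 6 in WAT H3K9me2. Among all promoter peaks with an overlapping peak in the other diet, HFD was narrower in 72.4%, 80.4% and 88.8% of these 3 comparisons, so the 8 genes were near the rest of their lists, and the 2 pairs with a wider HFD peak were both at Insr.

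The marks were compared in the same way, by the pair of peaks with the largest overlap, so further peaks of 1 mark alone were left out. In HFD BAT, for example, Akt1 had a peak near its main start for H3K9me3 alone (score 200.2). Near Akt1-007 it had one for H3K9me2 alone (score 61.5). Of the combinations of a gene, a diet and a tissue, 18 had a promoter peak of both marks, all 18 overlapping, with centres 112 bp apart in the median. In 7 combinations H3K9me2 alone had a peak, all in SCD WAT, and in 4 H3K9me3 alone, namely Pik3ca in HFD BAT, Akt1 and Slc2a4 in HFD WAT, and Akt1 in SCD BAT. By the pair with the largest overlap, BAT and WAT peaks of the same diet and mark overlapped in all 18 combinations that had both. Their centres were 158 bp apart in the median. BAT alone had a peak in 8 combinations, 7 of which were SCD H3K9me3, and WAT alone in 3, namely Pik3ca in HFD H3K9me2, Slc2a4 in HFD H3K9me3 and Akt1 in SCD H3K9me2. Overlap between marks or tissues was not counted over all genes either, so it is not read as particular to these genes.

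A feature that did not enter the choice of the genes is the CpG content 500 bp on either side of the starts, as the number of CGs observed over that expected from the bases. At the start of each group where it was highest, the ratio was 0.590 to 1.05 for the 8 most upstream groups (median 0.758) and 0.120 to 0.603 for the 15 internal groups (median 0.235). The median of all protein-coding genes, at their most upstream start, was 0.549, with quartiles of 0.227 and 0.768. That measure is not the same, since the highest start of a group was not picked there. At the most upstream start itself, Akt1 had 0.329, at the 34.7 percentile of all genes, and the others had 0.588 to 1.05. The 6 upstream groups with peaks in 6 or 7 lists had ratios between 0.704 and 1.05. The upstream group of Slc2a4, to which no peak was nearest, had 0.590, but that of Akt1 had 0.942 with peaks in 3 lists only, and internal Akt1 groups with ratios of 0.178 and 0.502 had peaks in 2 and 3 lists. The 63 promoter peaks had a GC content between 55.7% and 74.4% (median 65.2%), and 39 of them were above the median of the promoter peaks of their own list.

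**Figure D5:**
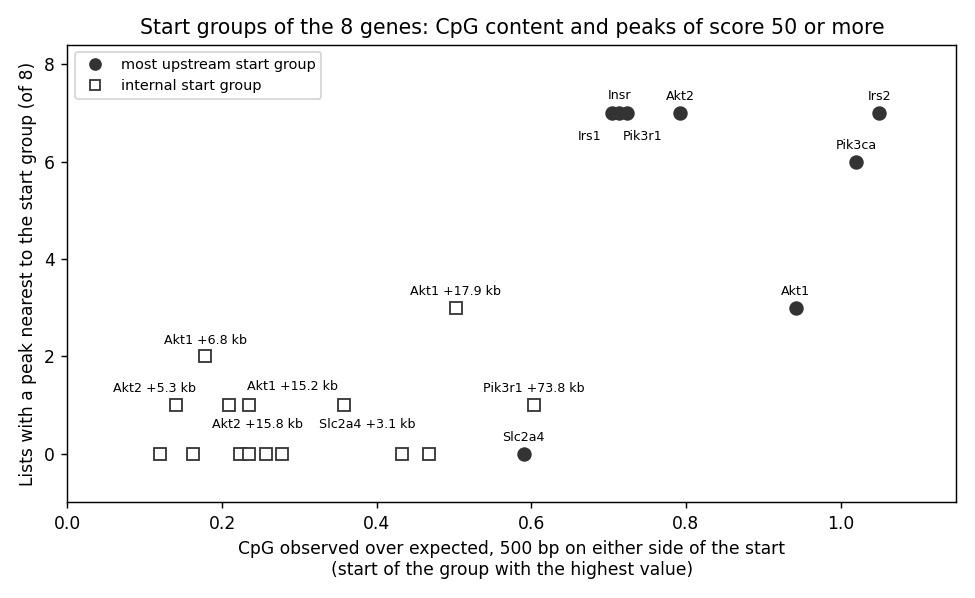
Each point is 1 of the 23 start groups of the 8 genes, by the CpG observed over expected ratio 500 bp on either side of a start (the start of the group with the highest ratio) and the number of lists with a peak of score 50 or more nearest to that group, filled circles being the most upstream group of a gene and open squares internal groups. Upstream groups with ratios of 0.704 or more had peaks in 6 or 7 lists except that of Akt1 (0.942, 3 lists).

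Around these 8 genes, 59 further genes of insulin signaling were counted in the same way. In BAT H3K9me2, 5 of the 59 (8.47%) had a promoter peak in HFD only and 12 (20.3%) in SCD only, beside 13.8% of all genes in HFD only and 11.5% in SCD only, and 33 had one in both diets. The strongest peaks in HFD only were those of Inpp4b (200.01) and Inppl1 (64.7), phosphatases that remove the lipids PI3K makes, and Rptor (68.9), a subunit of the mTORC1 kinase complex. In SCD only they were those of Pde3b (401), the phosphodiesterase by which insulin restrains lipolysis, Slc2a1 (234), which encodes the transporter GLUT1, and Rab10 (137), a small GTPase of GLUT4 vesicles. Pde3b and Rab10 stood with Pik3ca in this, since both had promoter peaks in the same 6 lists as Pik3ca.

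In BAT H3K9me3, 53 of the 59 genes had a peak in both diets (89.8%, against 50.1% of all genes). Mtor (139.6) and Mlst8 (54.6), which encode the kinase and a subunit of the mTOR complexes, had one in HFD only, and Rab13 (67.9) and the receptor adaptor Sh2b1 (67.1) in SCD only. In WAT H3K9me2, 4 genes (6.78%) had a peak in HFD only and 10 (16.9%) in SCD only, beside 7.16% of all genes in HFD only and 10.2% in SCD only. The highest in HFD only were Stxbp3 (99.6; annotated as Stxbp3a), which binds the syntaxin that receives GLUT4 vesicles, Tsc2 (86.0), a brake on mTORC1, and Sh2b1 (84.1). In SCD only, the GTPase gene Rhoq (237) and Rptor (149) had the highest scores.

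In WAT H3K9me3, 31 of the 59 genes (52.5%, against 30.6% of all genes) had a peak in HFD only, 0 in SCD only and 4 in both. The highest were Foxo1 (194), the transcription factor that Akt excludes from the nucleus, Igf1r (140.4), the receptor closest to Insr, and Lnpep (139), an aminopeptidase that travels with GLUT4. By step of the pathway these were 3 of 8 genes of the receptor and its adaptors, 10 of 16 kinases and their regulators, 7 of 12 genes of GLUT4 traffic, 5 of 9 targets and 6 of 14 brakes.

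The pattern of Insr, Irs1, Irs2, Pik3r1 and Akt2, with a promoter peak in every list except SCD WAT H3K9me3, was shared by 16 of the 59 pathway genes and by 13.3% of the other protein-coding genes. Among the 16, the genes nearest in the percentiles of their scores over the 7 lists were Socs1, which blocks the receptor, for Irs2 (mean difference 6.79 percentile points) and Pik3r1 (7.82), Tbc1d1, a GTPase-activating protein of GLUT4 vesicles, for Akt2 (9.89), Phlpp2, a phosphatase of Akt, for Irs1 (11.5), and Pdpk1, a kinase that activates Akt, for Insr (14.0). The pattern of Pik3ca was shared by 6 pathway genes and 2.69% of other genes, with Rheb, the GTPase that activates mTORC1, nearest over 6 lists (17.0). The patterns of Akt1 and Slc2a4 were shared by 0 pathway genes and by 0.532% and 1.05% of the other genes.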

How the data were processed

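Deposited ChIP-seq peak lists (H3K9me2 and H3K9me3, HFD and SCD, BAT and WAT) numbered 8, and the 4 inputs were not used. The labels and the methods of the study give the steps of the authors as FastQC, Trim Galore, Bowtie2 2.4.2 on mm9, removal of multi-mapping reads and peak calling by MACS2. The deposited score has no stated unit and was taken as the negative log10 of the p-value multiplied by 10, since it starts at 50 (p of 1e-05) or 30 (p of 0.001). This scale is that of an earlier MACS version and not the one usual for MACS2, so it remains an assumption. Depth is not given in the lists, so absence of a peak is limited by a depth that is not known.

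Sequence came from NCBIM37, the assembly behind mm9, and starts came from GENCODE vM1. As in the methods of the study, promoters reached 3 kb to each side of a start, here of every annotated one, and a gene body was the rest of the gene. Peaks were compared by an overlap of at least 1 bp. Groups came from the library labels. No test was run, because each group had 1 library. Alternatives were the deposited lists, a lowest score of 80, the same number of peaks per diet, 1 kb promoters, coding transcripts alone, the most upstream start alone and a reciprocal overlap of 50%. The same number of peaks was that of the shorter deposited list of each tissue and mark, with scores under 50 kept. The text names all 8 genes and, of the pathway genes, up to 3 per tissue, mark and diet with the highest score among peaks in 1 diet, those most like a member in presence and score percentile (fewer are printed than the 3 selected per gene), and genes that start within 3 kb of a peak of a member. Ybx2 was named after its values were seen. A result that the rule selected is not reported here. The members, the lists and the rules were chosen with earlier results of these data known.

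Calculations used Python 3.11.15, NumPy 2.4.6 and matplotlib 3.10.9. The placement of peaks was tested on simulated data, where 2000 of 2000 peaks placed at 400 genes were called as placed.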

Additional observations from a re-analysis of the deposited data

Results flagged for a closer look

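At Akt1 the order of the diets differed between the tissues for H3K9me2. In BAT a promoter peak was found in HFD only, with a highest score of 228, and in WAT in SCD only, with a score of 98.9. The peaks lay at different starts. Those of HFD BAT lay over or near internal starts, and that of SCD WAT lay downstream of the main start, over the start of Akt1-003. The difference was not tested, since each group had 1 library.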

How the results depend on the processing

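Of 176 alternative values of 36 counts, 160 were within 1.5 times the reported count and 139 had the same genes. Some of them could not differ, so these totals are no measure of how stable the counts are. Except in SCD WAT, the deposited lists are the lists used here. Equal numbers of peaks left the shorter deposited list of each tissue and mark whole, and a count that stayed at 0 entered as within. Counting the whole gene in place of the body beyond 3 kb gave body peaks at 6 genes in HFD and 6 in SCD for BAT H3K9me2, 7 and 7 for BAT H3K9me3, 6 and 7 for WAT H3K9me2, and 8 in HFD for WAT H3K9me3, because the promoter peaks then count. With equal numbers of peaks, body peaks were at 2 genes in HFD and 3 in SCD for BAT H3K9me3. With a score of at least 80 they were at 0 genes in HFD and 0 in SCD for WAT H3K9me2. In the deposited lists, with scores under 50, they were at 3 genes in SCD WAT H3K9me2. The SCD WAT H3K9me3 list had a promoter peak at 1 gene (Insr) in the deposited list and at 1 with equal numbers of peaks, a setting that kept this whole deposited list. With the most upstream start alone, 0 genes had a BAT H3K9me2 peak in HFD only. With a score of at least 80, 2 genes (Pik3ca and Akt2) had one in SCD only in BAT H3K9me2, and 1 (Pik3ca) in HFD only in WAT H3K9me2. No paired analysis was possible because each diet, tissue and mark had 1 library. Depth limits what the absence of a peak means, and it is not given in the lists.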
